A study of Homo sapiens with 6 samples.

Results

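The genes described here encode the extracellular matrix of A375 melanoma cells and the enzymes and inhibitors that shape it. They were the rows of the deposited table whose symbol was 1 of 40 listed lysyl oxidases, collagens, proteoglycans, hyaluronan genes, matricellular proteins, matrix glycoproteins and metalloprotease inhibitors. All 40 were found among the 58735 genes of the table. A375 is an established human cutaneous melanoma line. Of the 6 RNA libraries, 3 came from cells treated for 6 h with CuB and 3 from cells given DMSO, the vehicle. CuB is cucurbitacin B, a plant triterpenoid named in the series title, which links it to STAT3 signalling, endoplasmic reticulum stress and immunogenic cell death. The sources disagree on its dose, which is 0.2 µM in the protocol and 100 nM in the library names. The labels do not say that replicates were separate cultures, so p-values measure the spread between these libraries, which may be technical.

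The extracellular matrix is the network of secreted proteins and sugars around cells. Collagen chains assemble into fibres, sheets and beaded filaments, and lysyl oxidases oxidise lysines in collagen and elastin so that the chains crosslink. Proteoglycans and hyaluronan fill the network with water, link proteins hold them together, and matricellular proteins signal to cells without building much structure. Melanoma cells secrete many of these components themselves.

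Each library held from 14845976 to 16137093 fragments. The melanocytic regulator SOX10 stood at 184, 224 and 245 FPKM in the CuB libraries and at 175, 256 and 162 FPKM in the DMSO libraries, where FPKM is the number of fragments per length of gene and depth of library. Of 10 melanocytic markers, 5 averaged at least 1 FPKM and the pigment genes TYR and DCT were under 0.1 FPKM. The list summed to between 226 and 291 FPKM in CuB libraries and between 248 and 341 FPKM in DMSO libraries. Of its expressed members, S100B was lower, at 6.64 ± 0.161 FPKM with CuB and 26.4 ± 1.61 FPKM with DMSO (limma, log2 fold change -1.84, adjusted p = 1.27e-05). PRAME was also lower, at 30.1 ± 3.76 FPKM with CuB and 54.9 ± 1.65 FPKM with DMSO (limma, -0.85, adjusted p = 0.000939), while MITF and MIA gave no call. Endothelial markers summed to at most 1.41 FPKM in CuB libraries and 1.15 FPKM in DMSO libraries, with 0 of 5 averaging 1 FPKM. Of 5 leukocyte markers only LYZ averaged 1 FPKM, and the list summed to between 0.552 and 1.14 FPKM in CuB libraries and between 1.64 and 1.82 FPKM in DMSO libraries. LYZ was lower with CuB (limma, -0.58, adjusted p = 0.0218). Of 8 fibroblast markers only S100A4 and PDGFRB averaged 1 FPKM. Both were lower with CuB (limma, -0.99, adjusted p = 0.000977 for S100A4 and -0.75, adjusted p = 0.00382 for PDGFRB). DPT, PDPN and THY1 were under 0.1 FPKM. The fibroblast sum, mostly S100A4, ran from 74.4 to 86.8 FPKM in CuB libraries and from 145 to 188 FPKM in DMSO libraries. The epithelial sum, mostly KRT18, ran from 78.2 to 79.5 FPKM in CuB libraries and from 44.0 to 49.3 FPKM in DMSO libraries. EPCAM and CDH1 were under 0.1 FPKM. KRT18 (limma, 0.78, adjusted p = 0.000346) and KRT8 (limma, 0.49, adjusted p = 0.0246) were higher with CuB. The part of these marker shifts in the results below was not tested.

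After CuB, fibronectin, thrombospondin 1, the collagen VI chain COL6A3, TIMP3, the hyaluronan receptor CD44 and LOXL2 rose, while LOXL4, HAPLN1, MGP, biglycan, osteopontin, tenascin C and 7 further matrix genes fell. Most collagen genes did not pass the test. Of the 40 genes, 32 averaged at least 1 FPKM over the 6 libraries and entered limma's moderated test on log2(FPKM + 1), fitted on all 13273 genes above that level, with Benjamini-Hochberg adjustment over all of them. At an adjusted p under 0.05, 19 of the 32 (59.4%) were called, against 38.6% of all genes tested. The 6 called higher made up 18.75% of the tested members, against 22.9% of all genes. The 13 called lower made up 40.6%, against 15.6% of all genes. With an adjusted p under 0.05, 8 of the 32 changed at least 2-fold on the log2(FPKM + 1) scale, 3 higher and 5 lower. Among all genes that share was 7.24%. HAS2 and THBS2, both called, fell short on that scale. Their mean FPKM was 2.75-fold and 2.12-fold lower in CuB than in DMSO. For 21 members every CuB value lay on one side of the DMSO values, as it did for 51.5% of all genes.

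The median log2 fold change was -0.26 over the 32 tested members and 0.05 over all genes. Without DMSO replicate 2 the members' median was -0.066. Leaving out CuB replicate 2 lowered the count over all genes from 5118 to 3262 and left 16 members called. The deposited scaling also matters for small changes. With each library set to the same fragment total, the median of all genes moved by -0.14 and the share of all calls that were higher was 39.25%, against 59.5% as deposited. Under that scaling 6 members were higher and 14 lower. Their median log2 fold change was then -0.42, beside -0.08 for all genes. As a further limit, COL6A3 reached the 1 FPKM minimum only through its CuB libraries and THBS2, SPP1 and MGP only through their DMSO libraries. In bulk RNA, fewer cells expressing a gene and less of its RNA per cell cannot be told apart.

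**Figure D1:**
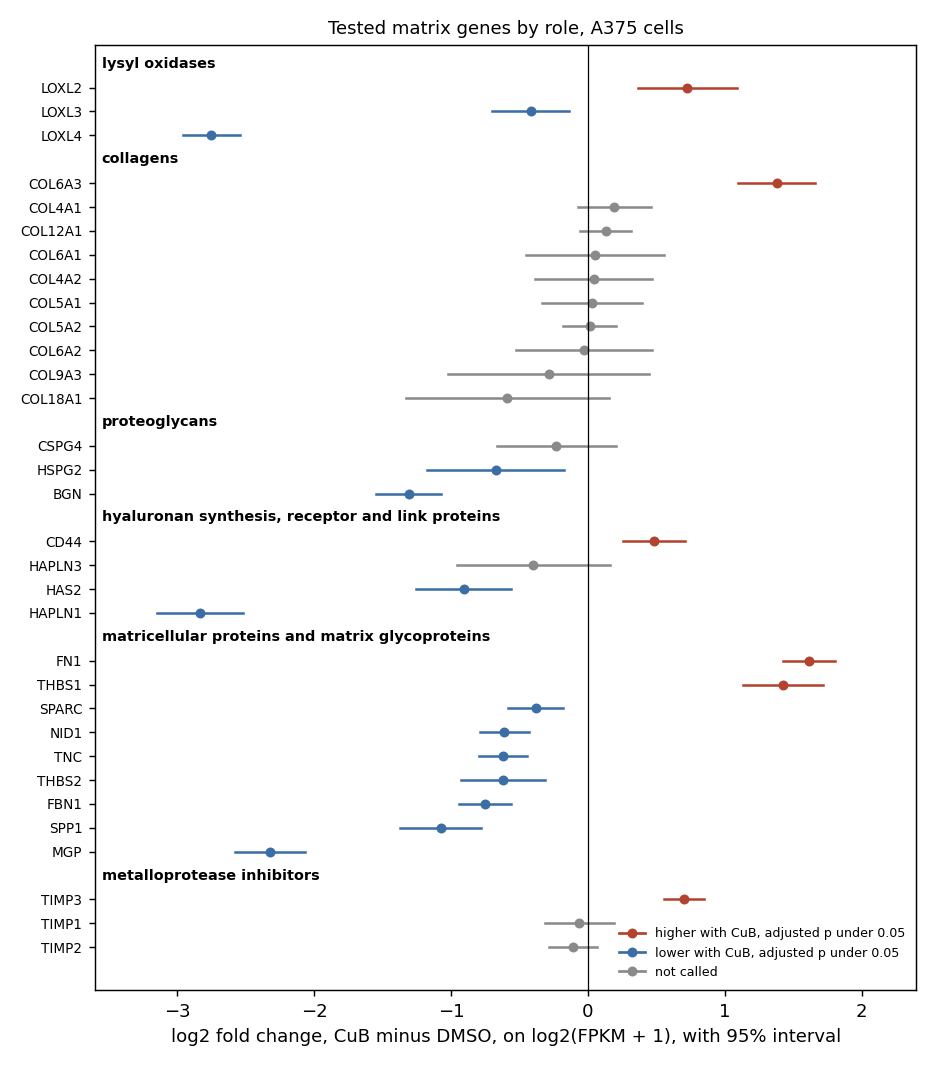
Log2 fold changes, CuB minus DMSO, of the 32 tested matrix genes grouped by role, on the log2(FPKM + 1) scale. Points are limma estimates from 3 libraries a group and lines are 95% intervals; 6 genes lie to the right and 13 to the left with an adjusted p under 0.05, and LOXL4, HAPLN1 and MGP lie below -2.

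The bases upstream of 4 genes with large called changes and a RefSeq promoter entry are shown, 2 that rose (FN1, THBS1) and 2 that fell (LOXL4, BGN). The 4 were chosen by name and not by rank of change. HAPLN1, which fell by more than BGN, is not shown. COL6A3, CD44 and TIMP3, which also rose, are not shown, and their windows held no match to the patterns searched. The choice thus does not show how often genes that rose or fell hold a match. Each runs 5′ to 3′ on the gene's own strand in GRCh38.p14 and ends before the first transcribed base. FN1 is chr2:215436173-215436318 on the minus strand, and its capitals mark the palindromic cyclic AMP response element TGACGTCA. THBS1 is chr15:39580829-39581078 on the plus strand, and its capitals mark a match to the STAT pattern TTCNNNGAA. LOXL4 is chr10:98268251-98268444 on the minus strand and BGN is chrX:153494730-153494938 on the plus strand, and neither holds a match to the patterns searched.
FN1: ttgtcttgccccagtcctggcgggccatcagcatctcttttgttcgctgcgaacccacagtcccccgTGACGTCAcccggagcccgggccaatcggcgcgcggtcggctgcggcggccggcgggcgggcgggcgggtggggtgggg
THBS1: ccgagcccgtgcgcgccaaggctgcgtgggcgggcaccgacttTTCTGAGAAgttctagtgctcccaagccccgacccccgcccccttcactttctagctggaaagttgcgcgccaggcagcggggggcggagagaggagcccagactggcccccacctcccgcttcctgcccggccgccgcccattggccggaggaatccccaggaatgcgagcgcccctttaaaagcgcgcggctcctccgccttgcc
LOXL4: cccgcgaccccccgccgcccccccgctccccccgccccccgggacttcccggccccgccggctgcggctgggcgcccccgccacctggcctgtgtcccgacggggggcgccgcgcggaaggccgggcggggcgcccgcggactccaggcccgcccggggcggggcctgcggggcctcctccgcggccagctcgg
BGN: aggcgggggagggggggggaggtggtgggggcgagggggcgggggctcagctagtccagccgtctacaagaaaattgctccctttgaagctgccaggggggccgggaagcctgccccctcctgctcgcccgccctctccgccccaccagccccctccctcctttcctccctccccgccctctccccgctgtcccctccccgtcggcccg
All 4 stretches were rich in G and C, at 74.0% for FN1, 69.6% for THBS1, 88.1% for LOXL4 and 74.2% for BGN. They held 19, 24, 31 and 13 CpG sites in that order.

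RefSeq held a window from 250 bases before to 50 bases after the start for 29 of the 40 genes, 34 windows in all. Patterns were searched on both strands. The cyclic AMP response element TGACGTCA, bound by CREB and ATF factors, was found in 1.85% of all 35116 windows and, among the tested members, in FN1, starting 183 bases before the RefSeq start. The STAT pattern TTCNNNGAA was found in 7.66% of all windows and in those of THBS1, LOXL3 and HAPLN3, of which THBS1 rose, LOXL3 fell and HAPLN3 did not pass the test. The element TGACGTGG, bound by XBP1 and ATF6, was in 0.729% of all windows and in that of TIMP1. The AP-1 pattern TGANTCA (7.71% of all windows) and the ATF4-type pattern TGATGNAA (3.62%) were in 0 of the tested members' windows. A TGACGTCA match holds no TGANTCA, since the spacing differs by a base. These matches describe letters in a window and say nothing on binding.

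All 3 tested lysyl oxidases were called, 1 higher and 2 lower, against 38.6% called of all genes tested. LOXL4 fell, LOXL3 fell by less, and LOXL2 rose. LOXL3 held the largest share of the family's FPKM in CuB libraries and LOXL4 in DMSO libraries. LOXL4 (ENSG00000138131, GRCh38 chr10:98247690-98268250, minus strand) stood at 31.7, 33.3 and 36.3 FPKM in CuB libraries and at 229, 253 and 217 FPKM in DMSO libraries. The groups were far apart, and DMSO levels lay at the 99.3 percentile of tested genes. The log2 fold change was -2.75 (SE 0.09, adjusted p = 4.34e-06), a level 6.91-fold lower in CuB than in DMSO. LOXL3 gave 40.7, 45.2 and 50.6 FPKM in CuB libraries and 58.0, 69.9 and 55.5 FPKM in DMSO libraries (log2 fold change -0.42, SE 0.12, adjusted p = 0.031). Its groups did not overlap, yet the adjusted p was 0.0831 without CuB replicate 1, 0.0944 without CuB replicate 2 and 0.0692 without DMSO replicate 1, and 0.0743 with no filter on low values. LOXL2, which can also act inside the nucleus, was at 19.6, 24.4 and 25.8 FPKM in CuB libraries and 11.7, 16.6 and 12.8 FPKM in DMSO libraries. Every CuB value exceeded every DMSO value (log2 fold change 0.73, SE 0.15, adjusted p = 0.00991).

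The family sum was 103 ± 10.3 FPKM in CuB libraries and 308 ± 28.3 FPKM in DMSO libraries (SD, n = 3 each). LOXL4 made up 32.9 ± 1.24% of it in CuB libraries and 75.7 ± 1.06% in DMSO libraries. LOXL3 held 44.1 ± 0.523% with CuB and 19.8 ± 0.673% with DMSO, and LOXL2 held 22.6 ± 1.23% with CuB and 4.43 ± 0.489% with DMSO. These shares come from values of 1 library each, so they do not depend on how libraries were scaled against each other. Within a library the ratio of LOXL4 to LOXL2 was 1.62, 1.36 and 1.41 with CuB and 19.6, 15.3 and 16.9 with DMSO. The founding member LOX was low, with 105 fragments over the CuB libraries and 72 over the DMSO libraries (ratio after scaling for library size 1.57, exact 95% interval 1.15 to 2.15, counting error only). LOXL1 had 4 fragments with CuB and 0 with DMSO. Both were below the minimum for testing, and in the fit with no filter LOX had an adjusted p of 0.343.

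Libraries made with this kit carry no strand information, so reads of a gene and its antisense partner cannot be told apart where they overlap. LOXL4 shares 152 bases (4.16% of its exon bases) with the antisense gene AL139241.1, which was counted at 37 fragments in CuB libraries and 1004 in DMSO libraries, while LOXL4 itself had 5434 in CuB libraries and 40384 in DMSO libraries. LOXL3 shares 14.3% of its exon bases with HTRA2 and 4.95% with DOK1. LOX shares 138 bases (2.49%) with SRFBP1 on the other strand, which had 1901 fragments in CuB libraries and 1204 in DMSO libraries.

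**Figure D2:**
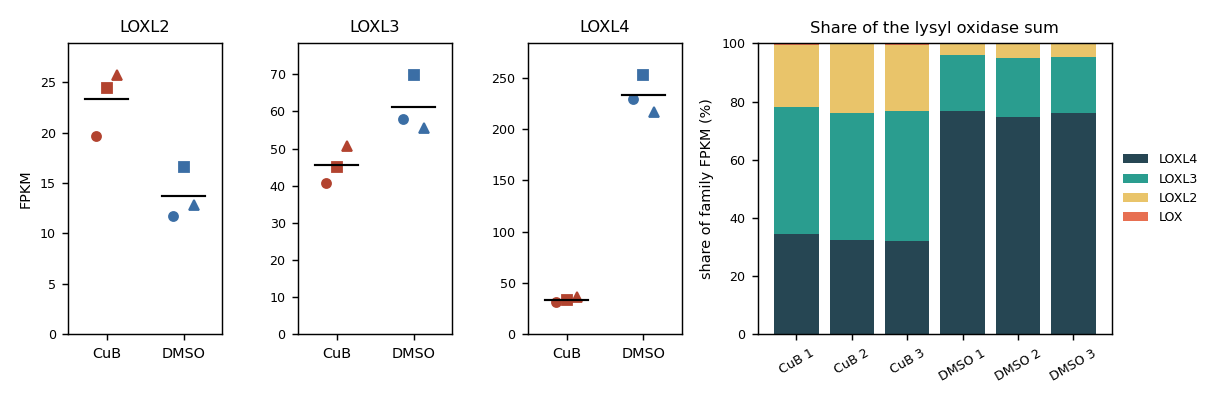
FPKM of LOXL2, LOXL3 and LOXL4 per library (circle, square and triangle are replicates 1, 2 and 3, lines are means), and each member's percent share of the summed lysyl oxidase FPKM in each library. LOXL4 takes between 32.1% and 34.3% of the sum in CuB libraries and between 74.5% and 76.6% in DMSO libraries.

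Among collagens, COL6A3 was the exception in a group whose other tested members did not pass the test. Of 14 collagen genes, 10 were tested, 1 was called higher and 0 lower, against 38.6% called of all genes tested. COL6A3 (ENSG00000163359, chr2:237324003-237414375, minus strand), the large chain of the beaded-filament collagen VI, stood at 2.18, 2.62 and 2.36 FPKM in CuB libraries and 0.262, 0.264 and 0.379 FPKM in DMSO libraries. The ranges were well separated, with 2063 fragments over the CuB libraries and 280 over the DMSO libraries. The mean was 7.91-fold higher in CuB than in DMSO. Its log2 fold change was 1.38 (SE 0.12, adjusted p = 0.000241) with a pseudocount of 1, and 2.64 with a pseudocount of 0.1.

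The partner chains of COL6A3 gave no call. COL6A1 was at 27.9, 33.2 and 37.7 FPKM in CuB libraries and 29.7, 43.4 and 24.1 FPKM in DMSO libraries, with a log2 difference of 0.05 (95% interval -0.45 to 0.56). COL6A2 was at 23.7, 28.9 and 32.4 FPKM in CuB libraries and 25.6, 39.8 and 23.3 FPKM in DMSO libraries, with a difference of -0.03 (-0.53 to 0.47). The groups overlapped for both, and these intervals leave room for changes in either direction. Within a library the ratio of COL6A3 to COL6A1 was 0.0779, 0.0790 and 0.0626 with CuB and 0.00883, 0.00610 and 0.0157 with DMSO. Even with CuB, COL6A3 thus stayed well below its partner per unit of length. COL6A1 and COL6A2 lie 93046 bases apart on chromosome 21, and COL6A3 is on chromosome 2.

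The basement membrane chains COL4A1 and COL4A2 lie head to head on chromosome 13, and neither passed the test. COL4A1 averaged 23.2 ± 2.46 FPKM in CuB libraries and 20.2 ± 2.12 FPKM in DMSO libraries (difference 0.19, -0.07 to 0.46). COL4A2 averaged 34.3 ± 5.72 FPKM with CuB and 33.5 ± 7.52 FPKM with DMSO (0.04, -0.38 to 0.47). The fibril-regulating collagen V chains COL5A2 and COL5A1 were close too. COL5A2 averaged 33.3 ± 2.59 FPKM in CuB libraries and 33.0 ± 0.802 FPKM in DMSO libraries (0.01, -0.18 to 0.21). COL5A1 averaged 3.35 ± 0.679 FPKM with CuB and 3.25 ± 0.560 FPKM with DMSO (0.03, -0.34 to 0.39). COL12A1, a collagen that sits on the surface of fibrils, had 7.61, 8.19 and 8.09 FPKM in CuB libraries and 7.18, 6.91 and 7.49 FPKM in DMSO libraries. Its groups did not overlap, but the difference of 0.13 (-0.06 to 0.31) did not pass the test.

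The widest intervals belonged to COL9A3 and COL18A1. COL9A3, a chain of cartilage collagen IX, was at 46.2, 62.7 and 79.0 FPKM in CuB libraries and 60.7, 120.1 and 57.4 FPKM in DMSO libraries (difference -0.29, -1.02 to 0.45). COL18A1, the source of endostatin, was at 2.48, 3.69 and 5.43 FPKM in CuB libraries and 4.68, 9.94 and 4.73 FPKM in DMSO libraries (-0.59, -1.33 to 0.15). In both genes DMSO replicate 2 stood far above the other DMSO libraries. COL18A1 also shares 16.4% of its exon bases with SLC19A1 on the other strand. The fibrillar chains below the minimum for testing were nearly silent. COL1A1 had 66 fragments over the CuB libraries and 47 over the DMSO libraries, and COL1A2 had 4 with CuB and 5 with DMSO. COL3A1 had 5 with CuB and 24 with DMSO, and COL11A1 had 19 with CuB and 14 with DMSO.

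**Figure D3:**
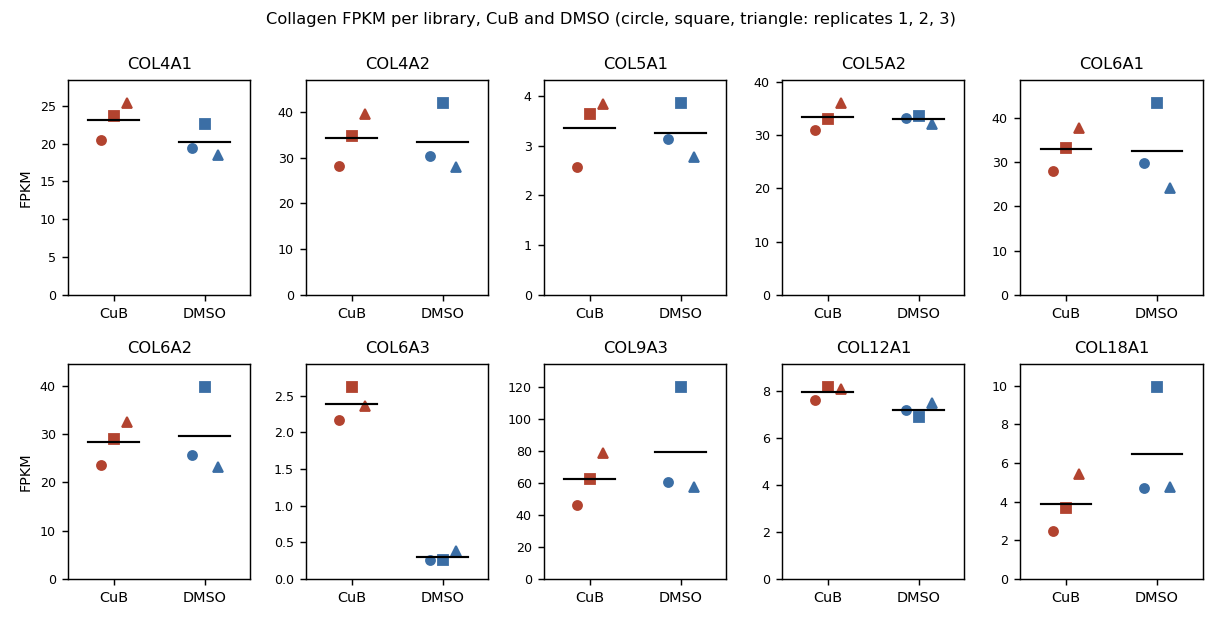
FPKM of the 10 tested collagen genes in each library, CuB on the left and DMSO on the right of each panel (circle, square and triangle are replicates 1, 2 and 3, lines are means). COL6A3 separates the groups, at 2.18 to 2.62 FPKM with CuB and 0.262 to 0.379 FPKM with DMSO, while DMSO replicate 2 is the highest DMSO library for 8 of the other panels.

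Proteoglycans moved down or did not pass the test. BGN (ENSG00000182492, chrX:153494939-153509554, plus strand) encodes biglycan, a small leucine-rich proteoglycan that binds collagen. It stood at 12.1, 12.4 and 13.1 FPKM in CuB libraries and 29.96, 37.1 and 31.1 FPKM in DMSO libraries, with no overlap (log2 fold change -1.31, SE 0.10, adjusted p = 0.000142). HSPG2, the basement membrane proteoglycan perlecan, was at 7.11, 9.84 and 12.2 FPKM in CuB libraries and 14.97, 19.97 and 13.0 FPKM in DMSO libraries (-0.67, SE 0.21, adjusted p = 0.0426). The closest HSPG2 values of the groups nearly touched. Its adjusted p ranged from 0.0838 to 0.0992 when CuB replicate 1, CuB replicate 2, DMSO replicate 1 or DMSO replicate 2 was left out, and was 0.110 with no filter.

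CSPG4, the melanoma-associated chondroitin sulfate proteoglycan also called NG2, was at 67.6, 80.9 and 91.4 FPKM in CuB libraries and 85.5, 121 and 78.2 FPKM in DMSO libraries. The groups overlapped (difference -0.23, 95% interval -0.66 to 0.20). VCAN, the large hyaluronan-binding proteoglycan versican, was below the minimum at 0.355 ± 0.0585 FPKM with CuB and 0.970 ± 0.122 FPKM with DMSO. It had 231 fragments over the CuB libraries and 679 over the DMSO libraries (ratio 0.366, exact 95% interval 0.314 to 0.426, counting error only), and in the fit with no filter its adjusted p was 0.0250. Decorin (DCN) was nearly absent, at 14 fragments with CuB and 34 with DMSO.

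Among the 4 hyaluronan genes, the receptor rose, a synthase and a link protein fell, and the other link protein gave no call. HAS2 (ENSG00000170961), which spins out hyaluronan at the plasma membrane, was at 1.26, 0.947 and 0.814 FPKM in CuB libraries and 3.19, 2.22 and 2.92 FPKM in DMSO libraries. All DMSO values were the higher ones (log2 fold change -0.91, SE 0.15, adjusted p = 0.00334). Its antisense partner HAS2-AS1, which shares 4.797% of its exon bases, had 1 fragment with CuB and 27 with DMSO. CD44, the main cell-surface receptor for hyaluronan, was at 99.97, 91.3 and 86.2 FPKM in CuB libraries and 68.6, 59.2 and 70.1 FPKM in DMSO libraries (0.48, SE 0.10, adjusted p = 0.00785). Those groups did not overlap, but under quantile normalization the log2 fold change was 0.25 (adjusted p = 0.102), and with equal fragment totals it was 0.32 (adjusted p = 0.0326).

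HAPLN1 (ENSG00000145681, chr5:83637805-83721613, minus strand) encodes a link protein that ties proteoglycans to hyaluronan. Its values were 7.84, 6.00 and 7.16 FPKM in CuB libraries and 57.1, 47.8 and 63.4 FPKM in DMSO libraries. The mean was 8.01-fold lower in CuB than in DMSO (log2 fold change -2.83, SE 0.13, adjusted p = 1.85e-05). Within a library, HAPLN1 stood at 0.0785, 0.0658 and 0.0831 of the CD44 level with CuB and at 0.832, 0.808 and 0.904 of it with DMSO. The related HAPLN3 was at 2.46, 3.62 and 4.04 FPKM in CuB libraries and 4.07, 6.99 and 3.58 FPKM in DMSO libraries, which overlapped and gave no call (-0.40, 95% interval -0.96 to 0.16). VCAN and HAPLN1 are neighbours on chromosome 5.

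All 9 matricellular and glycoprotein genes were called, 2 higher and 7 lower. Of all genes tested, 22.9% were called higher and 15.6% lower. FN1 (ENSG00000115414, chr2:215360440-215436172, minus strand) encodes fibronectin, the adhesive glycoprotein on which integrins pull. It was at 49.3, 50.4 and 47.3 FPKM in CuB libraries and 16.4, 14.4 and 15.1 FPKM in DMSO libraries. The libraries of each group lay within a few FPKM of each other, and the mean was 3.20-fold higher in CuB than in DMSO (log2 fold change 1.62, SE 0.08, adjusted p = 2.16e-05). THBS1 (ENSG00000137801, chr15:39581079-39599466, plus strand) encodes thrombospondin 1, which activates latent TGF-beta and restrains vessel growth. Its values were 64.1, 78.7 and 90.0 FPKM in CuB libraries and 28.6, 28.2 and 27.2 FPKM in DMSO libraries. The CuB libraries were more spread than the DMSO libraries but all far above them (log2 fold change 1.43, SE 0.12, adjusted p = 0.000253).

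The paralog THBS2 went the other way. It was at 0.958, 1.03 and 0.803 FPKM in CuB libraries and 2.28, 1.62 and 2.03 FPKM in DMSO libraries (-0.62, SE 0.13, adjusted p = 0.00947), on 262 fragments with CuB and 597 with DMSO. Within a library THBS1 exceeded THBS2 by 66.9, 76.7 and 112 times with CuB and by 12.6, 17.4 and 13.4 times with DMSO. TNC, the anti-adhesive glycoprotein tenascin C, was at 159, 171 and 172 FPKM in CuB libraries and 252, 276 and 244 FPKM in DMSO libraries (-0.62, SE 0.07, adjusted p = 0.00101). No TNC values overlapped between the groups. The ratio of TNC to FN1 within a library was 3.21, 3.40 and 3.63 with CuB and 15.3, 19.1 and 16.1 with DMSO.

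MGP and SPP1, secreted regulators of mineral and adhesion, fell to under 1 FPKM on average in CuB libraries. MGP (ENSG00000111341, chr12:14881181-14885926, minus strand), the matrix Gla protein that inhibits calcification, was at 0.695, 0.739 and 1.01 FPKM in CuB libraries and 7.63, 7.87 and 8.71 FPKM in DMSO libraries. The mean was 9.89-fold lower in CuB than in DMSO, on 95 fragments with CuB and 1008 with DMSO (log2 fold change -2.32, SE 0.11, adjusted p = 1.67e-05). SPP1, osteopontin, a ligand of CD44 and integrins, was at 0.547, 0.608 and 0.548 FPKM in CuB libraries and 2.02, 2.18 and 2.73 FPKM in DMSO libraries (-1.07, SE 0.13, adjusted p = 0.000871). Both genes had every CuB value below every DMSO value.

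The remaining glycoproteins, FBN1, NID1 and SPARC, fell by less than MGP and SPP1. FBN1, the microfibril protein fibrillin 1, was at 2.95, 3.04 and 2.96 FPKM in CuB libraries and 5.90, 5.44 and 5.82 FPKM in DMSO libraries (-0.75, SE 0.08, adjusted p = 0.000573). NID1, which bridges laminin and collagen IV, was at 43.3, 45.8 and 48.3 FPKM in CuB libraries and 71.5, 72.5 and 67.3 FPKM in DMSO libraries (-0.61, SE 0.08, adjusted p = 0.00111). SPARC, a collagen-binding matricellular protein, was at 226, 242 and 262 FPKM in CuB libraries and 311, 345 and 296 FPKM in DMSO libraries (-0.38, SE 0.09, adjusted p = 0.0128). None of the 3 overlapped, but SPARC had an adjusted p of 0.0508 without CuB replicate 2 and 0.0584 with no filter on low values.

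Of the inhibitors of metalloproteases, TIMP3 rose and the others gave no call. TIMP3, which stays bound to the matrix, was at 408, 377 and 412 FPKM in CuB libraries and 246, 245 and 243 FPKM in DMSO libraries. It had the highest mean of the 40 genes with CuB, and the groups were widely separated (log2 fold change 0.70, SE 0.06, adjusted p = 0.000253). TIMP1 was at 122, 98.2 and 97.7 FPKM in CuB libraries and 108, 118 and 105.0 FPKM in DMSO libraries (difference -0.06, 95% interval -0.31 to 0.19). TIMP2, which also takes part in activating a gelatinase, was at 19.7, 19.6 and 21.2 FPKM in CuB libraries and 21.7, 22.6 and 21.3 FPKM in DMSO libraries. Its values did not overlap, by a narrow margin (-0.11, -0.29 to 0.06, adjusted p = 0.273). TIMP2 was called lower with equal fragment totals (-0.27, adjusted p = 0.0278), under quantile normalization (-0.29, adjusted p = 0.0212) and after the GC correction (-0.16, adjusted p = 0.0219).

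**Figure D4:**
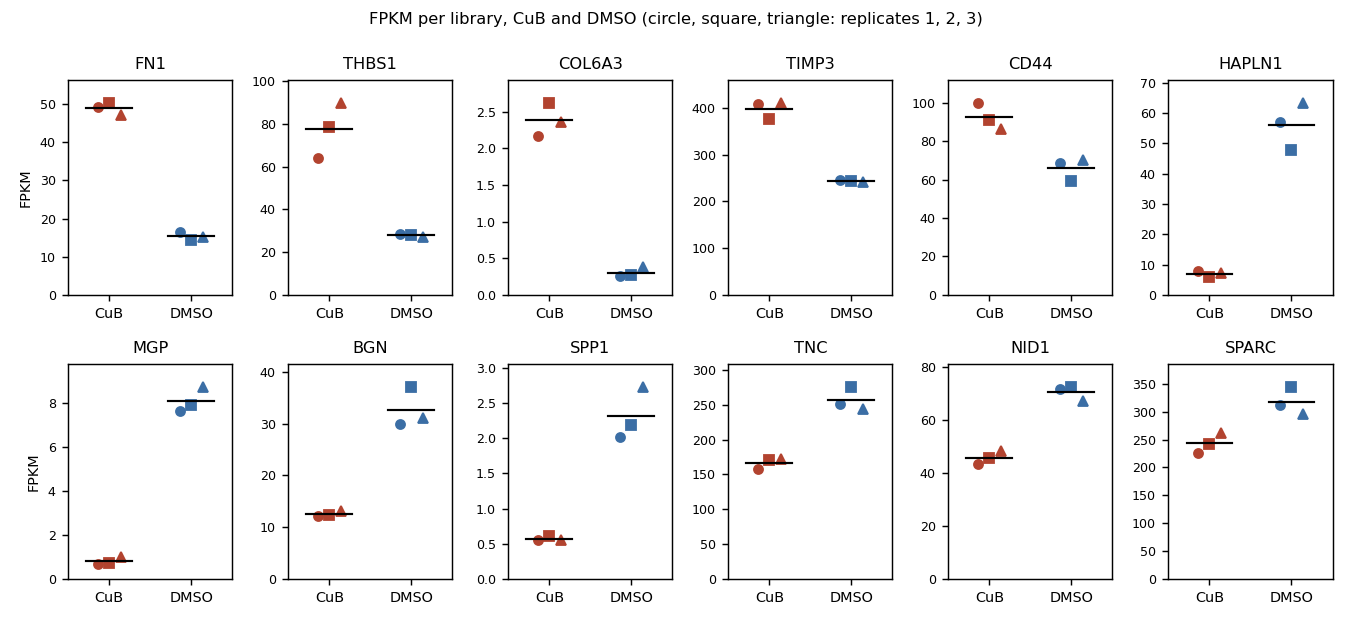
FPKM in each library for 12 genes that passed the test, CuB on the left and DMSO on the right of each panel (circle, square and triangle are replicates 1, 2 and 3, lines are means, axes start at 0). FN1, THBS1, COL6A3, TIMP3 and CD44 are higher with CuB, HAPLN1, MGP, BGN, SPP1, TNC, NID1 and SPARC are lower, and in each panel the groups do not overlap.

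The spread between replicates of 1 group went with GC content in these genes. The median GC content of the longest transcript was 48.7% for the 19 called members and 60.25% for the 13 others, against 47.75% for all tested genes. DMSO replicate 2 was the highest DMSO library for 12 of those 13 genes and for 20 of the 32 tested, against 40.7% of all tested genes. All 9 tested members with a GC content of at least 60% had that order. Over these 9 the median excess of DMSO replicate 2 over the mean of the other DMSO libraries was 0.56 on the log2 scale, and that of CuB replicate 3 over CuB replicate 1 was 0.44. Over all 1741 tested genes in the same GC range the medians were 0.49 and 0.37. For the 3 members under 40% GC, HAS2, HAPLN1 and MGP, the medians were -0.32 and -0.12.

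After a lowess curve on GC content was removed from each library, COL18A1 (log2 fold change -0.64, adjusted p = 0.00578), CSPG4 (-0.30, adjusted p = 0.000617), HAPLN3 (-0.47, adjusted p = 0.0214) and COL9A3 (-0.33, adjusted p = 0.0490) were called lower. COL4A1 was called higher (0.14, adjusted p = 0.0388), in this 1 of 17 alternatives only. With the replicate block added to the correction its adjusted p was 0.0790. With TIMP2, the correction without that block called 25 members, 7 higher and 18 lower, while 57.3% of all genes were called. Whether GC content is the source of the spread between replicates was not tested.

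**Figure D5:**
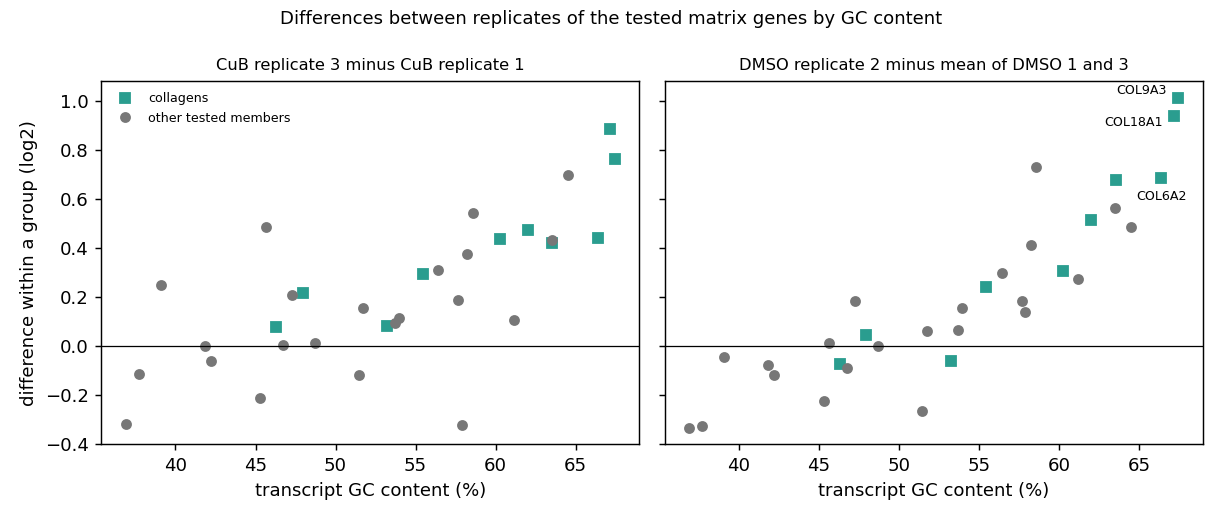
Differences between replicates of the same group for the 32 tested members (log2, vertical axis) against the GC content of the longest transcript (percent, horizontal axis), for CuB replicate 3 minus replicate 1 and for DMSO replicate 2 minus the mean of replicates 1 and 3. Squares are collagens; the points climb with GC content, and COL9A3 (1.01) and COL18A1 (0.94) are the highest in the DMSO panel.

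Matrix genes outside the 40, from 5 lists of 150 genes, were read in the same fit. Of their 69 tested genes, 31 (44.9%) were called, 10 higher and 21 lower, against 38.6% of all genes, and their median log2 fold change was -0.08. Among genes that process or modify collagen, 23 of 29 were tested, with 1 higher and 6 lower. The share called was 30.4%, below that of all genes. By direction, 4.35% were higher and 26.1% lower, against 22.9% and 15.6% of all genes. PCOLCE, which speeds removal of the procollagen end piece, averaged 17.6 ± 2.62 FPKM in CuB libraries and 42.8 ± 9.48 FPKM in DMSO libraries (-1.23, adjusted p = 0.00190). PLOD2, a lysyl hydroxylase whose products favour stable crosslinks, averaged 10.1 ± 0.940 FPKM with CuB and 17.6 ± 2.98 FPKM with DMSO (-0.74, adjusted p = 0.00596). P3H4 and CRTAP, partners in collagen prolyl and lysyl modification, fell by 0.64 and 0.49 on the log2 scale.

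Of 30 other collagens, 8 were tested and 2 rose and 2 fell. The basement membrane chain COL4A5 fell to 0.399 ± 0.0889 FPKM in CuB libraries, against 1.64 ± 0.171 FPKM in DMSO libraries. COL13A1, a transmembrane collagen, averaged 1.56 ± 0.196 FPKM with CuB and 0.690 ± 0.275 FPKM with DMSO (0.61, adjusted p = 0.0197). That call was lost without CuB replicate 2 (adjusted p = 0.0590), without CuB replicate 3 (0.0688), without DMSO replicate 1 (0.0686) or DMSO replicate 3 (0.0600), and with no filter (0.0572). COL4A5 reached the 1 FPKM minimum only through its DMSO libraries and COL13A1 only through its CuB libraries. COL19A1 fell by 0.50 on the log2 scale. Of 16 other hyaluronan genes, 7 were tested. The synthase HAS3 averaged 1.21 ± 0.229 FPKM with CuB and 3.55 ± 0.427 FPKM with DMSO (-1.04, adjusted p = 0.000966), the same direction as HAS2. Of genes linked to hyaluronan breakdown, CEMIP2 rose to 70.1 ± 0.654 FPKM with CuB, against 41.4 ± 2.35 FPKM with DMSO (0.75), and CEMIP fell to 50.2 ± 2.97 FPKM with CuB, against 71.5 ± 5.79 FPKM with DMSO (-0.50). The hyaluronidases HYAL2 (-0.23, adjusted p = 0.267) and HYAL3 (0.01, adjusted p = 0.945), named after their values were seen, were tested and gave no call.

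Of 26 other proteoglycans, 12 were tested, with 2 higher and 4 lower. SDC4, the syndecan of focal adhesions and a co-receptor for fibronectin, stood at 160.2, 157 and 156 FPKM in CuB libraries and 29.2, 35.8 and 35.7 FPKM in DMSO libraries (log2 fold change 2.21, SE 0.09, adjusted p = 1.21e-05). The other syndecans named by the same rule fell, SDC2 by 0.92 and SDC3 by 0.78 on the log2 scale. SDC1, not named by that rule, overlapped between the groups and gave no call (limma, -0.21, adjusted p = 0.411). The glypican GPC4, which averaged 0.501 FPKM with CuB and 1.77 FPKM with DMSO, fell by 0.89. Of 49 other matrix glycoproteins, 19 were tested, with 4 higher and 7 lower (57.9% called, against 38.6% of all genes). SMOC1, a SPARC-related protein, averaged 4.49 ± 0.558 FPKM with CuB and 1.90 ± 0.392 FPKM with DMSO (0.92, adjusted p = 0.00213). EMILIN1, an elastic fibre glycoprotein, averaged 23.5 ± 8.37 FPKM with CuB and 64.9 ± 26.9 FPKM with DMSO (-1.41, adjusted p = 0.0153), FREM2, of the Fraser complex, fell by 1.33, and RECK, a membrane-anchored metalloprotease inhibitor, fell by 0.86 on the log2 scale. RECK averaged under 1 FPKM with CuB and 2.58 FPKM with DMSO, so it and GPC4 reached the minimum only through their DMSO libraries.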

How the data were processed

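Polyadenylated RNA of A375 cells was sequenced from 3 CuB and 3 DMSO samples. Libraries were made with a TruSeq RNA kit, per the labels' protocols. The deposited values are FPKM per gene, as made by the authors. Per the submitters' processing notes the genome was GRCh38. The sources used here do not name an aligner, counter or scaling. All 58735 identifiers and coordinates were those of GENCODE 29. Multiplying FPKM by the gene length gave whole fragments within 0.01 for 100% of values above 0, from 14845976 to 16137093 per library. Library sizes implied by the FPKM were 0.914 to 0.927 of these totals with CuB and 1.03 to 1.04 with DMSO, so equal totals were tried as an alternative. In pairs of replicates the fragments differed beyond counting noise, with a chi-square of 2.80 to 24.3 per degree of freedom, so none was counted as a duplicate.

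The test took log2(FPKM + 1) of the 13273 genes averaging 1 FPKM or more, in R 4.3.3 with limma 3.58.1 (moderated test with trend, 4 residual degrees of freedom, Benjamini-Hochberg adjustment, threshold 0.05, no replicate block). Fold changes on this scale understate those of low genes. Intervals of fragment ratios are exact at 95% and cover counting error only. GC content came from the longest GENCODE transcript, and the correction removed a lowess curve of span 0.3. Promoter bases are RefSeq's for GRCh38.p14. The fit was also run on simulated independent counts. These lacked the spread with GC content seen between replicates here, so that run lends the calls no support. The members and lists were chosen with earlier results of these data known. From each further list, up to 4 called genes with the largest fold change and no overlap between groups were named. Of the list symbols, TMEM2 and CTAGE5 were matched to CEMIP2 and MIA2 by synonym. Alternatives were a pseudocount of 0.1, no filter, a minimum mean of 5 FPKM, same sum, quantile normalization, equal fragment totals, voom on recovered fragments, no trend, the replicate block, the GC correction with and without it, and each library left out. Plots used Python 3.11.15 and matplotlib 3.10.9.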

Additional observations from a re-analysis of the deposited data

How the results depend on the processing

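No called member changed direction under the 17 alternatives, and 15 of the 19 called genes passed in each alternative in which they were tested, the exceptions being LOXL3, HSPG2, CD44 and SPARC. With a minimum mean of 5 FPKM, which tests fewer genes, 24 members were tested, with 5 higher and 8 lower. In that fit 3250 genes in all (42.1% of 7713 tested) and 17 genes of the further lists were called. Quantile normalization gave the members a median of -0.46. The GC correction called 49 of the 69 tested genes of the further lists, while 57.3% of all genes were called. With the replicate block added, it called 47 of the 69 and 54.2% of all genes. Leaving out each library in turn gave from 3262 (without CuB replicate 2) to 5755 (without DMSO replicate 2) genes called, from 16 to 19 members called, and members' medians from -0.393 to -0.066. The cause of these shifts was not tested.

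The deviations of same-numbered libraries correlated at 0.269, 0.118 and -0.357, and those of differently numbered libraries at -0.494 to 0.469. With 3 libraries a group, and a spread that went with GC content, these values cannot settle whether replicate numbers pair the samples. A fit with the replicate number as a block called 19 members and 4443 genes in all. Voom on the recovered fragments, of which 100% were whole, called 19 members and 5385 genes. Fold changes of low genes depend on the pseudocount: with 0.1, those of COL6A3, SPP1, HAS2 and THBS2 were 2.64, -1.84, -1.38 and -1.004. Few fragments limit LOX, LOXL1, COL1A1, COL1A2, COL3A1, COL11A1 and DCN, which were below the 1 FPKM minimum. VCAN was left out by that minimum too, although its 231 fragments with CuB and 679 with DMSO exceed those of SPP1 and HAS2, which were tested. For the further lists, the fit with no filter gave EMILIN1 an adjusted p of 0.0517.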
